A study of Mus musculus with 131 samples.

Results

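The genes described here encode acute-phase proteins, the plasma proteins that the liver makes in larger amounts during inflammation. They were taken by gene symbol from an mRNA table of mouse hepatocytes and comprise Saa1, Saa2, Saa3, Saa4, Orm1, Orm2, Lcn2, Hp, Apcs and Il1rn, 10 of the 23895 gene names in the table. Each was read in every library of the table that the labels place in a group, and the DNA methylation tiles and peaks inside each gene and within 5 kb of it were read as well.

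The study followed the loss of DNA methylation in hepatocytes after birth and its dependence on Tet2 and Tet3, enzymes that oxidise 5-methylcytosine, in C57Bl mice. RNA was read from 18 libraries in 7 groups. Uninjected wild-type (WT) hepatocytes were taken at 1 week (n = 1), 3 weeks (n = 3) and 15 weeks (n = 3). Mice with floxed Tet2 and Tet3 alleles received AAV8, a liver-tropic viral vector, carrying Cre under the hepatocyte-specific Tbg promoter at 1 day (Tet2/Tet3 DKO, n = 3) or at 3 weeks (n = 2). WT mice given the same vector at 1 day (n = 3) or 3 weeks (n = 3) were the injected controls, and all injected groups were sampled at 15 weeks. Whole-genome bisulfite sequencing (WGBS) covered 1 newborn library, labelled 1 week. It also covered 1 uninjected adult WT library and 1 DKO library injected at 1 day, both at 15 weeks. Reduced representation bisulfite sequencing (RRBS) covered 2 WT mice at 3 weeks, 3 injected controls and 2 DKO mice at each injection time. Liver ATAC-Seq and HNF6 ChIP-Seq each covered 2 WT and 2 DKO libraries. Histone marks covered 1 library a genotype at 15 weeks, the DKO injected at 1 day, and 5-hydroxymethylcytosine 1 WT library taken at 20 days. RRBS of hepatocytes that lost the insulin receptor after birth (2 mice), of WT hepatocytes kept in vitro (2 cultures, 1 week by their label), of neutrophils at 36 weeks and of fat at 25 weeks (1 library each) is used only for values outside the comparisons. The label of the cultures does not give the time in culture. Per the study's methods, unsorted liver cells of newborn mice were grown for weeks. Mice of a group are written below as A, B and C, and an RRBS mouse shares its letter with the RNA library that carries the same animal number.

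In the acute-phase response, interleukin 6 acting through STAT3 and interleukin 1 acting through NF-kB and C/EBP factors raise transcription of these genes in hepatocytes. Serum amyloid A1 and A2 are apolipoproteins that travel on high density lipoprotein, serum amyloid A3 is made in many tissues, and serum amyloid A4 is the form made without inflammation. Orosomucoids 1 and 2 are abundant plasma glycoproteins that bind lipophilic ligands. Haptoglobin (Hp) captures free haemoglobin, lipocalin 2 (Lcn2) withholds iron from bacteria by binding their siderophores, serum amyloid P component (Apcs) is a pentraxin that binds microbial and nuclear debris, and Il1rn encodes a secreted antagonist of the interleukin 1 receptor. Hepatocyte DNA is largely methylated at birth, and local loss of methylation at regulatory elements is a known feature of cells that mature.

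Expression values are FPKM, read fragments scaled to transcript length and to the mapped fragments of the library, so levels can be set side by side between genes. Of 11166 genes tested, those reaching a mean of 1 FPKM in at least 1 group, all 10 members passed. Il1rn reached 1 FPKM in only 2 of the 7 groups and Orm2 in 6, and no member was listed at 0 in any library. The paralogs resemble each other in sequence: 20.4% of the 50-base stretches of the Orm1 transcript, 21.8% of Orm2, 10.8% of Saa1 and 9.09% of Saa2 also occur in another transcript of the family. The division of reads within these families is therefore uncertain.

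The libraries differed in ways that touch the results. The 3-week mouse B stood apart from its group at several members, as given below. All 3 libraries of the 3-week group had Xist at 48.0 to 77.1 FPKM and almost no Y-linked transcript, whereas the 15-week uninjected mice showed the reverse, so age and sex cannot be told apart in that comparison. Control C injected at 3 weeks also had Xist, at 88.1 FPKM, unlike the other 2 controls and both DKO libraries of that injection time. Hepatocyte markers summed to between 5666 and 9277 FPKM in every library, although Alb was listed at 0 in all of them. Neutrophil markers summed to at most 1.69 FPKM except in the 1-week library, where 6 of the 7 markers in the table exceeded 1 FPKM and their sum reached 63.2 FPKM. The cells had been sorted as negative for CD45, a surface protein of leukocytes. That library also had 1672 FPKM of erythroid and 115.7 of cholangiocyte markers. Because these are bulk preparations, fewer cells of a type and less RNA per cell cannot be told apart. FPKM over the whole gene does not isolate the deleted exons of Tet2 and Tet3. Tet2 was at 2.82 to 4.08 FPKM in the DKO injected at 1 day against 0.89 to 2.13 in its controls, and at 0.824 to 1.84 against 2.08 to 2.99 for injection at 3 weeks, so these values do not check the deletion at 1 day and the libraries are called DKO as labelled.

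In adult hepatocytes haptoglobin was by far the most abundant member. At 15 weeks the uninjected libraries A, B and C had 2266, 2219 and 2036 FPKM of Hp, which made up 61.2% to 78.5% of the summed member FPKM in all adult libraries. Orm1 followed at 667, 655 and 523 FPKM, roughly an order of magnitude above its paralog Orm2 at 65.0, 71.9 and 47.2. The order then ran through Saa4 at 145.5, 120.1 and 91.5 FPKM and Saa1 at 112, 127 and 48.1. Saa4, Saa1 and Orm2 are neighbours in this order, and the range of Saa1 overlapped both of the others, while Orm2 lay wholly below Saa4. Apcs stood at 54.4, 42.9 and 46.9 FPKM, Saa2 at 36.7, 47.0 and 14.6, Saa3 at 14.7, 19.2 and 5.75, and Lcn2 at 14.9, 13.4 and 5.44. Orm2 overlapped Apcs, Apcs overlapped Saa2, Saa2 overlapped Saa3 and Saa3 overlapped Lcn2. Within each mouse Saa2 was nonetheless above Saa3 and Orm2 above Apcs in all 3, while the order of Apcs and Saa2 and that of Saa3 and Lcn2 changed between mice. Il1rn closed the list at 0.282, 0.334 and 0.431 FPKM. Mouse C was the lowest of the 3 for 8 members.

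**Figure D1:**
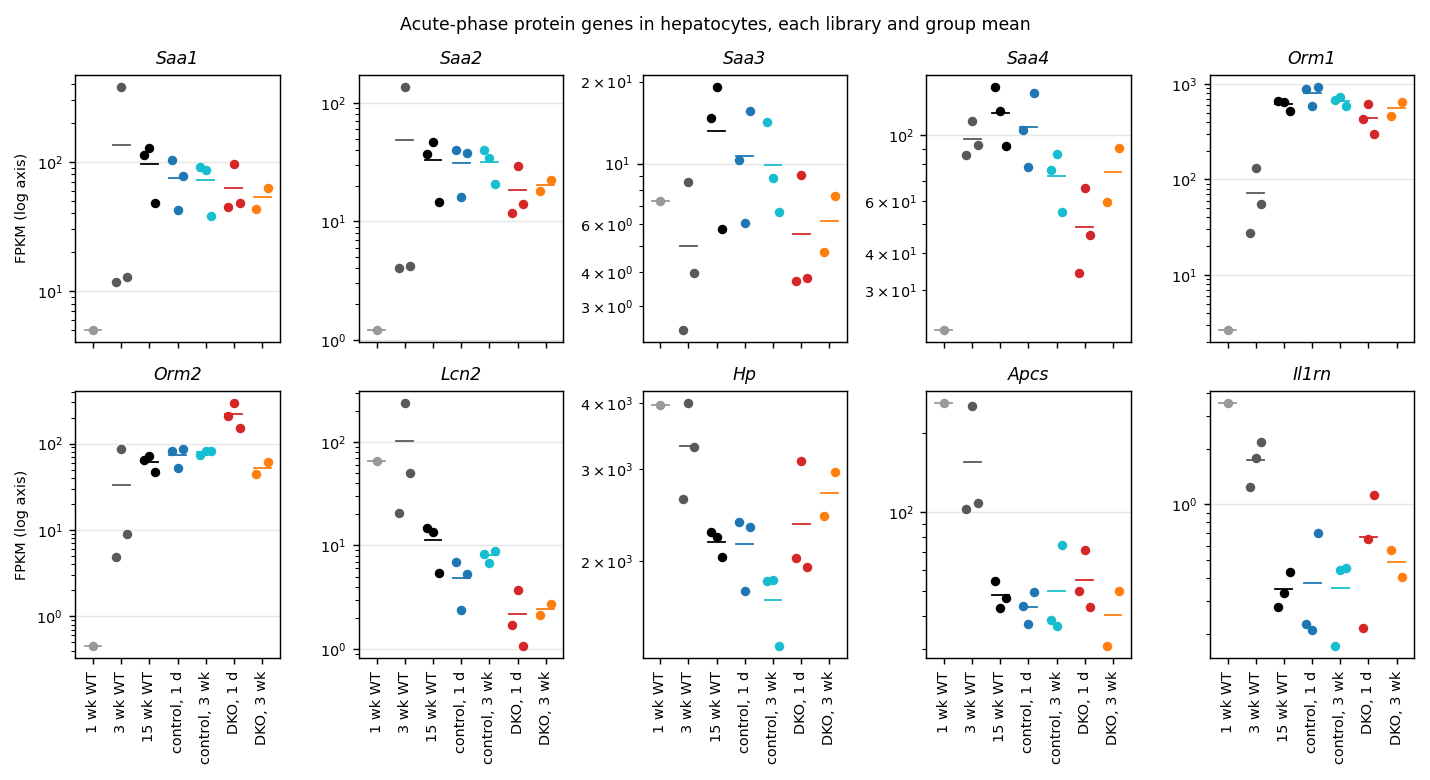
FPKM on a log axis for each of the 10 acute-phase genes, 1 panel a gene and 1 point a library, in the 7 groups from 1 week WT to DKO injected at 3 weeks. Orm1 climbed from 2.65 at 1 week to 523 to 667 at 15 weeks, Lcn2 went the other way, and Orm2 was highest in the DKO injected at 1 day.

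Orm1 separated the young from the adult hepatocytes most clearly. It was at 2.65 FPKM in the 1-week library, at 27.5, 133 and 55.9 in the 3-week mice A, B and C, and at 523 to 667 at 15 weeks. No library of either age overlapped the other, and the log2 difference between 15 and 3 weeks, on the log2(FPKM + 1) scale used throughout, was 3.35 ± 0.42 (SE; limma adjusted p = 5.15e-05). Orm2 moved from 0.45 FPKM at 1 week through 4.85, 86.7 and 8.95 at 3 weeks to 47.2 to 71.9, and its difference of 1.84 ± 0.69 did not pass (limma adjusted p = 0.0553).

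Lcn2, Apcs and Il1rn ran in the opposite direction. Lcn2 was at 66.2 FPKM at 1 week and at 20.7, 239.8 and 50.2 at 3 weeks, against 5.44 to 14.9 at 15 weeks, and fell by 2.50 on the log2 scale from 3 to 15 weeks (SE 0.66; limma adjusted p = 0.0106). Apcs was at 261 FPKM at 1 week and at 103, 254 and 108 at 3 weeks, and fell by 1.54 (SE 0.34; limma adjusted p = 0.00383). Il1rn, at 3.53 FPKM at 1 week and 1.25, 1.77 and 2.17 at 3 weeks, fell by 1.00 (SE 0.19; limma adjusted p = 0.00113). In each case every 3-week library lay above every 15-week library. Hp also lay higher in all 3-week mice, at 2631, 4010 and 3306 FPKM, with a log2 difference of -0.59 ± 0.22 that narrowly missed the threshold (limma adjusted p = 0.0504). With a filter of 5 FPKM both Hp and Orm2 passed (limma adjusted p = 0.0434 and 0.0477), and with rescaled libraries Hp did (0.023) and Orm2 did not (0.122). For Lcn2, which neutrophils also make, the 1-week value stood beside the neutrophil markers S100a8 at 17.8 and S100a9 at 24.9 FPKM in that library, whereas in the 3-week mice the neutrophil markers summed to at most 0.384 FPKM. Other markers fell from 3 to 15 weeks without overlap beside these genes, the summed macrophage markers from 5.70 to 15.2 FPKM down to 1.16 to 2.03, the endothelial from 11.3 to 19.4 down to 2.21 to 4.47 and the proliferation markers from 3.03 to 4.33 down to 0.291 to 0.511. The part of these cells was not tested.

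In total 4 of the 10 members passed between 15 and 3 weeks, 1 higher and 3 lower, in a comparison in which 33.3% of all tested genes passed, 24.0% higher and 9.32% lower. The count is therefore close to that of genes at large. Among the members 1 lay wholly above and 4 wholly below in the adult libraries, where 43.5% of all genes did not overlap. Median differences were 0.64 for the members and 0.16 for all tested genes. Mouse B of the 3-week group decided several of these values. Its Saa1 level was 382 FPKM against 11.8 and 12.9 in mice A and C, Saa2 was at 137 against 4.01 and 4.22, and it also had the highest Orm2, Lcn2 and Apcs of its group. Without it Saa1 rose by 2.75 from 3 to 15 weeks (limma adjusted p = 0.00184), where the difference with all mice was 1.13 ± 0.98 (limma adjusted p = 0.405), and 8 of 10 members passed.

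The single 1-week library allows no test. A member was counted as different when every 15-week library was more than 1 log2 unit away from it, which held for 14.4% of all genes, 5.74% higher and 8.62% lower at 15 weeks. Among the members 5 were higher at 15 weeks (Saa1, Saa2, Saa4, Orm1 and Orm2, by means of 3.90, 3.79, 2.35, 7.39 and 5.40) and 3 were lower (Lcn2, Apcs and Il1rn, by -2.56, -2.42 and -1.75). Hp was already at 3970 FPKM at 1 week, and Saa3 was at 7.31. Thus among the 10 members Hp and Apcs had the highest FPKM in this 1-week library, and Orm1 and Orm2 were low. Other acute-phase genes were not ranked there, and the library also held the erythroid and neutrophil markers given above.

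The injected controls ask whether the AAV8 vector itself left a lasting acute-phase signature in adult hepatocytes. Libraries of most members overlapped those of uninjected mice. Orm1 was at 885, 591 and 937 FPKM in controls A, B and C injected at 1 day and at 687, 725 and 584 in those injected at 3 weeks. Saa1 was at 104, 42.4 and 77.7 in the first group and at 91.4, 86.4 and 37.8 in the second. Both ranges overlapped the uninjected mice. Lcn2 had the widest difference, with 6.90, 2.37 and 5.26 FPKM after injection at 1 day and 8.36, 6.81 and 8.93 after injection at 3 weeks. Its log2 difference of all injected controls from uninjected mice was -0.70 ± 0.57 (limma adjusted p = 0.901). For injection at 1 day alone it was -1.05 ± 0.66 (limma adjusted p = 0.789), and neither passed.

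None of the 10 members passed in the comparison of all 6 injected controls with the 3 uninjected mice, where limma called 37 genes, 0.331% of those tested. Members differed by -0.70 (Lcn2) to 0.31 (Orm2) on the log2 scale. At an unadjusted p below 0.05 there were 0 members, among 936 genes. No member separated injected from uninjected libraries without overlap, as 5.74% of genes did. For injection at 1 day alone limma called 0 of 11166 genes, a share of 0, with 0 members among the 855 genes at an unadjusted p below 0.05, and again no member was free of overlap where 18.9% of genes were. For injection at 3 weeks the share called was 0.385%, no member passed, and 1 member was among the 958 genes at an unadjusted p below 0.05. There Orm2 lay wholly above and Saa4 and Hp wholly below the uninjected libraries, in a comparison where 18.8% of genes did not overlap. Saa4 had 76.2, 86.7 and 55.1 FPKM in these controls, a log2 difference of -0.70 ± 0.28 (limma adjusted p = 0.442). The 95% intervals were wide for the inducible genes: for Saa1 the difference of all injected controls from uninjected mice could lie between -2.19 and 1.46.

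Some genes of the pathway did differ when all 6 injected controls were compared with the uninjected mice. Cebpb and Cebpd, which encode the C/EBP beta and delta factors of the acute-phase response, fell by 1.00 (SE 0.14; limma adjusted p = 0.0105) and 0.97 (SE 0.17; limma adjusted p = 0.0327) on the log2 scale. Cebpb had means of 79.1 FPKM in injected and 159 in uninjected hepatocytes. They were the 2 genes called of a list of 9 transcription factors. Both were also called for injection at 3 weeks alone, and 0 of the 9 for injection at 1 day alone. Hamp, the iron hormone hepcidin, was the only one called of 22 other positive acute-phase genes tested. It rose by 5.26 ± 0.99 (limma adjusted p = 0.0434) and ranged from 103 to 937 FPKM after injection, against 4.11, 72.9 and 0 in uninjected libraries A, B and C. No gene was called among 6 negative acute-phase genes, 12 genes of interleukin 6 and STAT3 signalling, 15 of interleukin 1, TNF and NF-kB signalling or the 1 tested receptor gene.

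Deletion of Tet2 and Tet3 at 1 day was compared with the controls injected at the same age. Saa4 passed the test. It was at 34.2, 66.4 and 46.0 FPKM in DKO libraries A, B and C and at 104, 77.8 and 138 in the controls. All 3 DKO libraries lay below all 3 controls, and Saa4 fell by 1.12 on the log2 scale (SE 0.28; limma adjusted p = 0.0139). The call was lost without control C (-0.92, limma adjusted p = 0.0784) or without DKO A (-0.90, limma adjusted p = 0.0725), each of which is the extreme of its group. Markers of other cell types also differed without overlap between these libraries. Summed erythroid markers were at 12.4 to 16.0 FPKM in the DKO against 53.5 to 70.7, macrophage markers at 1.96 to 3.91 against 4.72 to 7.83, endothelial markers at 3.25 to 5.20 against 5.42 to 8.33 and leukocyte markers at 0.0136 to 0.051 against 0.0886 to 0.198. Their part in the differences was not tested.

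Orm2 lay higher in the DKO and Orm1 lay lower on average. Orm2 was at 208, 296 and 151 FPKM in the DKO libraries against 82.1, 52.6 and 86.1 in the controls, with no overlap. The log2 difference was 1.54 ± 0.69 (limma adjusted p = 0.132) with all groups sharing 1 estimate of the spread. That estimate includes the 3-week group, where Orm2 ran from 4.85 to 86.7 FPKM. In the fit limited to the DKO and control groups Orm2 passed (limma adjusted p = 0.0131), as it did with the adult groups only (0.0015), a fit chosen after seeing the data. Orm1 was at 426.4, 610 and 296 FPKM against 885, 591 and 937, with 1 DKO library inside the control range, and its difference was -0.89 ± 0.42 (limma adjusted p = 0.155). With the adult groups only Orm1 passed (limma adjusted p = 0.023).

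The remaining members were not separated from their controls. Lcn2 had 1.70, 3.72 and 1.06 FPKM in the DKO and a log2 difference of -0.89 ± 0.66 (limma adjusted p = 0.366). Saa3 had 3.72, 9.06 and 3.79 against 10.3, 6.08 and 15.5, a difference of -0.85 ± 0.48 (limma adjusted p = 0.231). Saa2 differed by -0.75, Saa1 by -0.24, Il1rn by 0.25 and Apcs by 0.31, with overlapping libraries. Hp stood at 2028, 3099 and 1942 FPKM against 2373, 1753 and 2325, a difference of 0.11 with a 95% interval from -0.35 to 0.58.

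Altogether 1 of 10 members passed after deletion at 1 day, where 20.0% of all tested genes did, 4.33% higher and 15.6% lower. The difference between these shares was not tested. Without overlap 1 member lay higher and 1 lower, against 40.5% of all genes. The median difference was -0.49 for the members and -0.11 for all tested genes, and rescaling the libraries to a common median for all genes left Saa4 called.

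**Figure D2:**
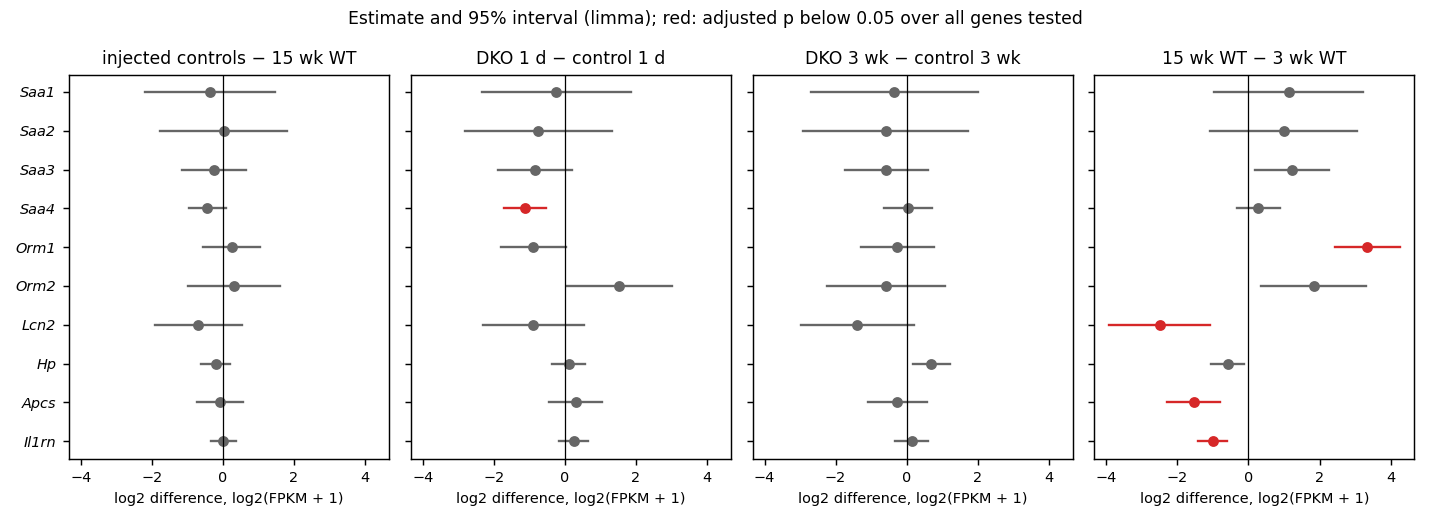
Log2 difference of each acute-phase gene with its 95% interval (limma, log2(FPKM + 1) scale) in 4 comparisons, with called genes in red. After deletion at 1 day only Saa4 was called, at -1.12, while between 15 and 3 weeks Orm1 was called at 3.35 and Lcn2, Apcs and Il1rn fell by 2.50, 1.54 and 1.00.

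After deletion at 3 weeks Hp was at 2439 and 2958 FPKM in DKO A and B against 1832, 1834 and 1373 in controls A, B and C. Both DKO libraries exceeded all controls, with a log2 difference of 0.69 ± 0.24 that did not pass (limma adjusted p = 0.0994). Without control C, the library with Xist, it was 0.55 (limma adjusted p = 0.246). Lcn2 was at 2.13 and 2.75 FPKM against 8.36, 6.81 and 8.93, also without overlap, and differed by -1.39 ± 0.74 (limma adjusted p = 0.25). Orm2 was at 44.1 and 61.0 FPKM against 73.1, 80.9 and 82.2, below all controls, with a difference of -0.59 ± 0.77 (limma adjusted p = 0.659). Saa4 was at 59.6 and 90.3 FPKM against 76.2, 86.7 and 55.1, overlapping at a difference of 0.04 ± 0.31. None of the 10 members passed by limma, where 5.25% of genes did, 0.905% higher and 4.34% lower. At an unadjusted p below 0.05 there was 1 member among 2866 genes. Without overlap 1 member lay higher and 2 lower, against 48.3% of all genes. The DKO libraries of this injection time had 10.3 and 21.4 FPKM of summed endothelial markers against 3.56 to 9.27 in their controls, and the part of these cells was not tested.

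The effect of deletion at 1 day was then set against that at 3 weeks in an interaction term. Orm2 had the widest gap, 2.13 ± 1.03 on the log2 scale (limma adjusted p = 0.187), followed by Saa4 at -1.16 ± 0.41 (limma adjusted p = 0.0892). No member passed by limma, while 5.36% of genes did, and 1 member was among the 3324 genes at an unadjusted p below 0.05. Limited to the 4 groups compared, the fit called Orm2 (limma adjusted p = 0.0411). The median interaction was -0.02 for the members and for all tested genes.

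The proportion of the orosomucoid paralogs was read in each library. The Orm1 to Orm2 ratio of FPKM was 10.3, 9.11 and 11.1 in the uninjected 15-week mice, 10.8, 11.2 and 10.9 in controls injected at 1 day and 9.40, 8.97 and 7.11 in controls injected at 3 weeks. In the DKO injected at 1 day it was 2.05, 2.06 and 1.96. In the DKO injected at 3 weeks it was 10.5 and 10.7, inside the range of the adult WT libraries. The 3 DKO libraries injected at 1 day therefore sat apart from all other adult libraries, with a ratio near 2, although their Orm2 levels ranged from 151 to 296 FPKM. The only other library as low was 3-week mouse B, at 1.54, against 5.67 and 6.24 in mice A and C. Orm3, an orosomucoid gene outside the members, was at 47.7, 124 and 36.1 FPKM in the same DKO libraries against 8.83, 5.96 and 13.4 in the controls, and rose by 2.61 ± 0.45 (limma adjusted p = 0.00159). Its interaction term was 3.30 ± 0.67 (limma adjusted p = 0.0286). The sum of all 3 orosomucoids was 682.3, 1029 and 483 FPKM in the DKO against 976, 649.5 and 1036 in the controls, which overlap. The Saa1 to Saa2 ratio ran from 1.82 to 4.13 over all libraries. It was 3.76, 3.31 and 3.49 in the DKO injected at 1 day and 2.60, 2.64 and 2.05 in its controls, which do not overlap.

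Genes of the wider acute-phase system were read from lists of positive and negative acute-phase proteins, signalling components and factors. After deletion at 1 day 4 of 22 other positive acute-phase genes rose and 3 fell, where 4.33% of all tested genes were called higher and 15.6% lower. The count of fallers is close to the share of all genes. Orm3 rose most, and Fgg, the fibrinogen gamma chain, rose by 0.54 (limma adjusted p = 0.043). Itih3, which encodes a hyaluronan-binding inhibitor chain, and Serpina3m, a serine protease inhibitor, were the other 2 risers, at 0.53 and 0.47 (limma adjusted p = 0.0144 and 0.0307), named after their values were seen. The metallothioneins Mt1 and Mt2, which bind zinc and copper, fell by 2.44 and 2.46 (limma adjusted p = 0.0106 and 0.0147), and Lrg1, a secreted leucine-rich glycoprotein, fell by 1.14 (limma adjusted p = 0.0349). Of 6 negative acute-phase genes 1 rose, Serpina6, the corticosteroid-binding globulin, by 1.46 (limma adjusted p = 0.00976).

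Regulators fell or did not pass after deletion at 1 day. Among the transcription factors Cebpb fell by 0.89, Cebpd by 1.20 and Hnf4a by 0.64 (limma adjusted p from 0.00124 to 0.0362). Of 12 genes of interleukin 6 and STAT3 signalling 2 fell, the receptor chains Lifr by 1.02 and Il6ra by 1.00 (limma adjusted p = 0.0071 and 0.0403). Of 15 genes of interleukin 1, TNF and NF-kB signalling 3 fell, the NF-kB inhibitor Nfkbia by 0.81, the NF-kB subunit Rela by 0.50 and the TNF receptor Tnfrsf1a by 0.41. No gene of these signalling and factor lists rose, in a comparison with 4.33% of all genes called higher and 15.6% lower. The counts of fallers in both signalling lists are close to that lower share. Il6ra libraries overlapped between the groups.

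After deletion at 3 weeks 5.25% of all genes were called, against 20.0% at 1 day, and the lists had fewer calls as well. Serpina3m rose by 0.88 (limma adjusted p = 0.00775) and the complement gene C4b fell by 0.64 (limma adjusted p = 0.0249) among the 22 positive acute-phase genes. Stat3 fell by 0.68 (limma adjusted p = 0.0327) and its kinase Tyk2 by 0.45 (limma adjusted p = 0.05 after rounding). The interleukin 1 receptor accessory chain Il1rap rose by 0.76 and Nfkb1 fell by 0.49 (limma adjusted p = 0.0451 and 0.0464). None of the 6 negative acute-phase genes passed. The interaction was called for Orm3, for Cebpb at -1.29, for Cebpd at -1.17 and for Nfkbia at -1.41 (limma adjusted p = 0.0223, 0.0438 and 0.0367 for the last 3). The DKO minus control difference of the last 3 was therefore lower for deletion at 1 day than at 3 weeks.

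Between 3 and 15 weeks 24.0% of all tested genes were called higher and 9.32% lower, and with rescaled libraries the called genes split evenly, at 49.2% higher. Socs3, the feedback inhibitor of STAT3 signalling, rose by 3.11, from a mean of 5.92 to 59.1 FPKM (limma adjusted p = 9.95e-06), and Lifr rose by 1.88. In all 5 of 12 interleukin 6 genes rose and Il6ra fell by 1.07. Of 9 factors 3 rose, Cebpa by 0.92, Cebpb by 0.65 and Cebpd by 0.91. The interleukin 1 list had 7 risers and 2 fallers of 15. Of 22 positive acute-phase genes 2 rose and 7 fell, among them the lipopolysaccharide-binding protein Lbp, which fell by 1.59 from 160 to 52.6 FPKM. Of 6 negative acute-phase genes 3 fell: Ahsg by 1.87, Fetub by 0.81 and Serpina6 by 1.49. The scavenger receptor Scarb1, the only tested gene of the receptor list, fell by 0.71. Sex transcripts differed between these 2 groups as well, so every difference between 3 and 15 weeks carries that limit. The single 1-week library had Xist at 0.061 FPKM and Y-linked transcripts at 33.2, the pattern of the 15-week mice.

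DNA methylation around the members was read first from WGBS, as the mean of each 200 bp tile. With 1 library a stage there is no replicate check, the read depth is not given with the fractions, and the DKO and the adult WT library also differ by the injection. Within the genes and 5 kb around them 558 tiles had newborn and adult values. Methylation fell by at least 35 percentage points from newborn to adult in 85 of them (15.2%), against 1.64% of all tiles genome-wide. The 85 tiles had means of 74.3% in the newborn, 18.5% in the adult and 73.6% in the DKO. They lay inside the genes (36 tiles), upstream (30) and downstream (19). In the other direction 2 tiles gained, both at Il1rn. In the DKO 109 of 559 tiles (19.5%) were at least 35 points above the adult WT, against 1.98% of all tiles, and 0 were below by as much. Genome-wide means were 78.6%, 75.8% and 76.3% in newborn, adult and DKO.

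The members differed widely. Hp led with 26 of 64 tiles lost and 36 of 65 higher in the DKO, then Orm1 with 20 and 22 of 52, Saa1 with 16 and 19 of 56 and Orm2 with 10 and 10 of 55. Saa4 had 6 and 8 of 60 tiles, Saa2 had 4 and 5 of 52, Lcn2 3 and 4 of 59, Apcs 2 and 3 of 33 and Il1rn 1 and 3 of 79. Saa3 lost none of 64 and had 2 higher in the DKO. The genes with the highest adult FPKM, Hp and Orm1, were thus those with the largest shares of lost tiles, at 40.6% and 38.5%. Their expression moved in opposite directions with age. Hp was at 3970 FPKM in the 1-week library and at 2036 to 2266 at 15 weeks, and Orm1 was at 2.65 and at 523 to 667. Hp was also not lower in the DKO at either injection time. A link between lost tiles and expression was not tested. Windows of neighbouring Saa genes overlap: 10 tiles are counted for both Saa1 and Saa4 and 6 for both Saa1 and Saa2. Of the 85 tiles that lost methylation 78 were also higher in the DKO, where 70.3% of all such tiles were, and both differences use the same adult library.

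**Figure D3:**
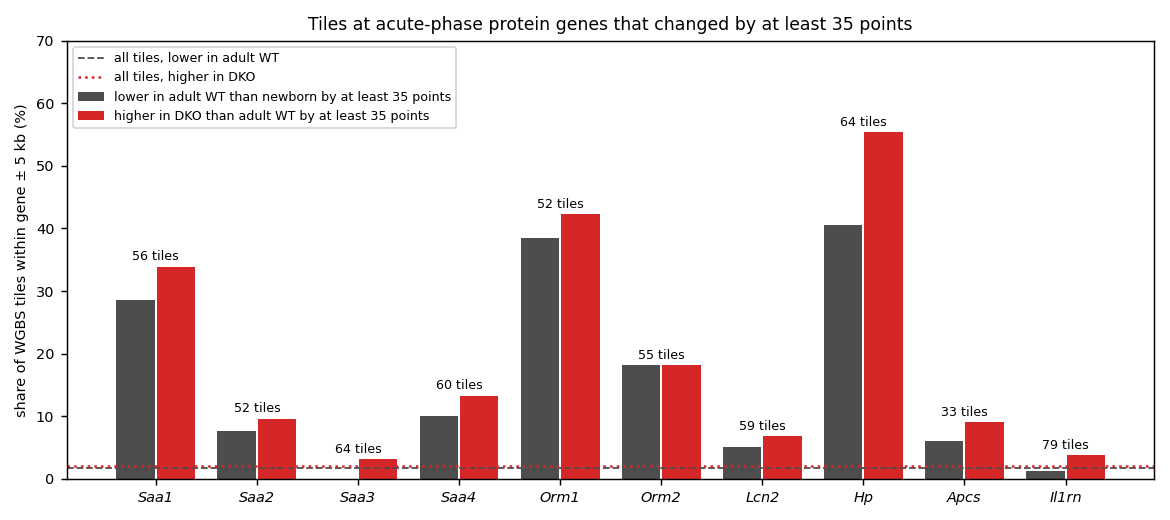
Percentage of 200 bp WGBS tiles at each acute-phase gene that lost at least 35 points from newborn to adult and that were at least 35 points higher in DKO than in adult WT, with lines for all tiles of the genome (1.64% and 1.98%). Hp and Orm1 stand highest, at 40.6% and 38.5% lost, and Saa3 has no lost tile.

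**Figure D4:**
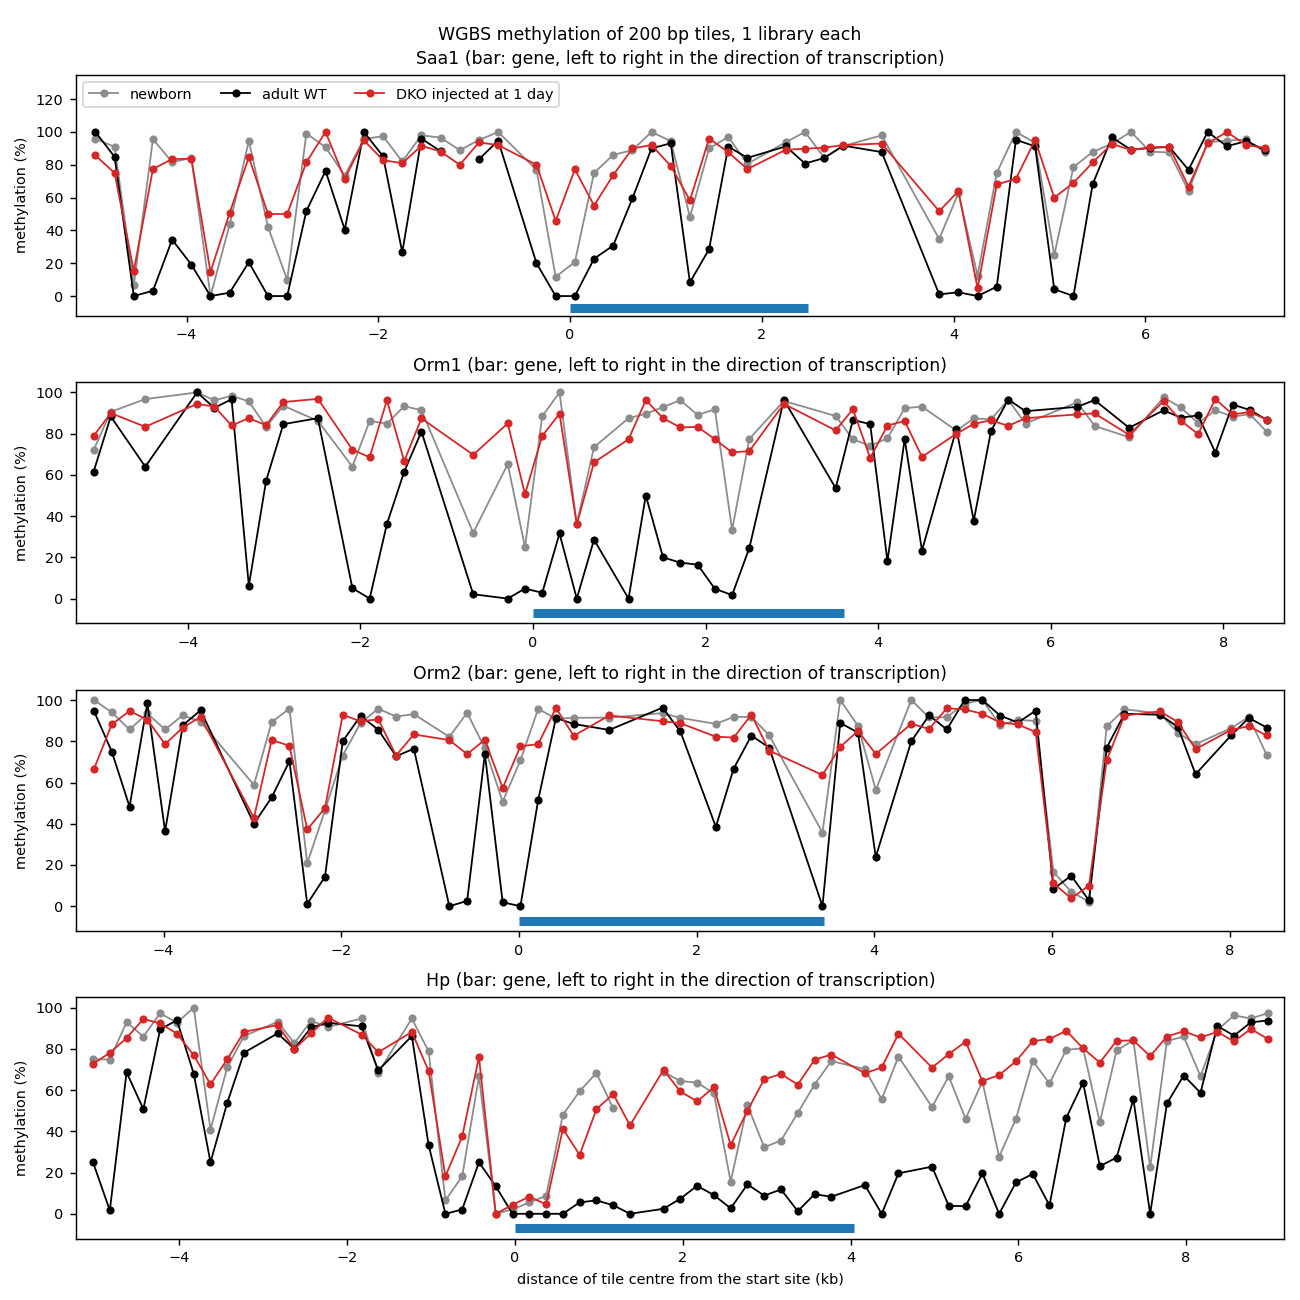
CpG methylation in percent of each 200 bp tile against the distance from the start site for Saa1, Orm1, Orm2 and Hp, with 1 line each for newborn, adult WT and DKO (1 library a line). The adult line falls towards 0 over stretches of each window. In the tile at the start site the newborn, adult and DKO values are 70.7%, 0% and 77.6% for Orm2 but 2.17%, 0% and 4.35% for Hp.

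A few upstream tiles with a large fall or a large excess in the DKO show how few CpG dinucleotides carry the signal. They are given below as the mm9 forward strand with each CpG in capitals. In the Saa1 and Saa2 tile (chr7:54002601-54002800, between the divergent start sites), methylation was 95.7% in the newborn, 3.23% in the adult and 77.4% in the DKO. The Orm1 tile (chr4:63005201-63005400, 294 bases upstream of the start site at its centre) had 65.2%, 0% and 85.0%, the widest excess of the DKO among the member tiles. For the Orm2 tile (chr4:63022801-63023000, 582 bases upstream), 93.8%, 2.56% and 73.8% were measured. The Hp tile (chr8:112107801-112108000, 4828 bases upstream) had 74.8%, 1.65% and 78.1%, and holds 5 CpGs where the Saa1 and Orm1 tiles hold 1 and the Orm2 tile holds 2.
Saa1 and Saa2 tile: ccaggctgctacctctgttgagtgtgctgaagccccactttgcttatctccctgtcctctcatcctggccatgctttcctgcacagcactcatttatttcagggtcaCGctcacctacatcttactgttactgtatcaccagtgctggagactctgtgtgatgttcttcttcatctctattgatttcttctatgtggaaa
Orm1 tile: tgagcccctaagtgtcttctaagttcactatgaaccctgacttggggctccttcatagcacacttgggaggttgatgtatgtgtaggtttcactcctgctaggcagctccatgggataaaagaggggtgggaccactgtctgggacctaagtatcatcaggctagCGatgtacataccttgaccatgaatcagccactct
Orm2 tile: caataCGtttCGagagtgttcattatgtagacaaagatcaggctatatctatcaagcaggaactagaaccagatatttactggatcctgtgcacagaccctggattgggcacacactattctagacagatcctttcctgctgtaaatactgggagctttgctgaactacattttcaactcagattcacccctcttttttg
Hp tile: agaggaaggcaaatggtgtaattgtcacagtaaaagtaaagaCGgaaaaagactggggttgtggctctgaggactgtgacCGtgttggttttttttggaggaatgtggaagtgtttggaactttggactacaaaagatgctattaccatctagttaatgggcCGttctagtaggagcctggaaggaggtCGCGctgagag

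In these single WGBS libraries the start sites themselves fell into 3 kinds, with Saa2 and Saa4 between them. At Orm2 the tile holding the start site had 70.7% methylation in the newborn, 0% in the adult and 77.6% in the DKO, and at Saa1 20.7%, 0% and 77.3%. Orm1 had 25.0%, 4.88% and 50.6%, and Lcn2 5.56%, 0% and 56.3%. At these 4 genes the DKO was above the newborn as well as the adult. Hp (2.17%, 0% and 4.35%) and Apcs (0% in all 3) were unmethylated at every stage. Il1rn (85.7%, 72.7% and 97.6%) and Saa3 (74.1%, 64.4% and 86.3%) stayed methylated in the adult, and their adult means were 0.349 and 13.2 FPKM. Saa2 (60%, 30.2% and 46.9%) and Saa4 (35.2%, 11.3% and 21.2%) lay between. The RRBS mice differed from this at an Saa2 tile inside the same stretch. There the injected controls had 0% to 7.69% and the DKO mice injected at 1 day 81.0% and 92.3%, as at the first kind.

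The promoters of Saa1, Saa2 and Orm2 are shown as examples. Methylation at their start sites was lower in the adult than in the newborn and the DKO, as it was at every member except Apcs. Sequences are the 250 bases before the start site on the gene's strand, from RefSeq on GRCm38.p6, and capitals mark the letters TTGNNNNAA of the C/EBP motif on either strand. RefSeq entries were at hand for 8 of the 10 members, with 10 promoters, and Orm1 and Hp had none. The windows, which run on to 50 bases after the start, are chr7:46742931-46743230 (minus strand) for Saa1, chr7:46751583-46751882 (plus) for Saa2 and chr4:63362199-63362498 (plus) for Orm2.
Saa1 promoter: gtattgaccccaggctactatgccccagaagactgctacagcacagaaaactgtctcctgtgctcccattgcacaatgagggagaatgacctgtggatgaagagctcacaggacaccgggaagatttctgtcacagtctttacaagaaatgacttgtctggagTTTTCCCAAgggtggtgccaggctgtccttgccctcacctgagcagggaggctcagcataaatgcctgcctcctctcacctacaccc
Saa2 promoter: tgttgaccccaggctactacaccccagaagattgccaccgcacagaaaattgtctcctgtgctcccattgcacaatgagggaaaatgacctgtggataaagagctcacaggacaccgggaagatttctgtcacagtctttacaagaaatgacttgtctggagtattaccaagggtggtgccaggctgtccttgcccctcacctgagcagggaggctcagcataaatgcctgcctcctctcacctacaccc
Orm2 promoter: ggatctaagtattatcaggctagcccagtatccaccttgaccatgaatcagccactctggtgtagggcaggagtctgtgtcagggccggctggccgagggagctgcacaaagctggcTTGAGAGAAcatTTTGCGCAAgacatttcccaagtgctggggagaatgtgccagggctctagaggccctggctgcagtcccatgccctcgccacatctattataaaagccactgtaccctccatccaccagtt

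The Saa1 and Saa2 windows were identical at 95.3% of aligned positions, and the Orm2 window matched that of Orm3 at 86.6%. Saa1 held 1 C/EBP match at position -87 from the start site and Saa2 held none. Orm2 held 2, at -133 and -121, the second with a CpG inside it. The C/EBP letters occurred in 7 of the 10 member promoters and in 34.7% of 32817 promoters of the genome. The 7 count 1 Il1rn match in 2 overlapping windows, and the Saa3 match lies 35 bases after the start. Whether the members differ from all promoters was not tested. The STAT3 letters TTCNNNGAA occurred in 1 member promoter (Apcs) and in 8.29% of all. The single pattern searched for NF-kB, GGGNNTTCC (5.82% of all), occurred in none. That pattern has a fixed length and misses sites with another spacing, so it cannot show whether the member promoters lack NF-kB sites. Both strands were searched, and a match is a description of letters only.

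RRBS gave replicate mice for the deletion, at fewer tiles. Over the 40 tiles of 100 bp at the members measured in all mice, mean methylation was 67.4% and 70.1% in DKO mice A and B injected at 1 day against 47.5% to 53.8% in the 3 controls, a difference of 17.0 points. For injection at 3 weeks it was 60.8% and 61.7% against 47.3% to 50.1%, 12.9 points over 33 tiles. The groups did not overlap at either time, and p = 0.2 in the two-sided exact permutation test is the smallest that 2 against 3 mice allow. The 3-week WT mice, at 55.5% and 57.5%, lay above all 6 injected controls, at 43.3% to 49%, by 9.86 points over 31 tiles (two-sided exact permutation p = 0.0714, again the smallest possible). The RNA libraries of both 3-week mice had Xist and almost no Y-linked transcript, as control C injected at 3 weeks did. The other controls showed the reverse. Age, sex and injection therefore cannot be told apart wherever RRBS of these 3-week mice is set against the controls. The means depend on the tiles taken: with the median over tiles the differences were 20.6, 38.5 and 49.6 points, and with tiles inside the genes alone 21.1, 24.3 and 20.6.

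By gene, Hp differed most after deletion at 1 day, with 78.6% and 85.1% in the DKO mice and 8.71% to 37.3% in the controls (56.5 points, 3 tiles). Saa1 differed by 30.1 points, Orm1 by 21.7, Saa2 by 21.6, Saa4 by 20.6 and Orm2 by 8.54, each without overlap. Lcn2 differed by 0.0981 points and overlapped, with 10 tiles measured. Each of these tiles was near 0% or at 87.5% and above in every mouse compared, so a difference could hardly show there. The tile nearest the Lcn2 start site was left out because controls B and C had no value. At that tile control A had 10.0% and the DKO mice 72.7% and 66.7%. After deletion at 3 weeks Orm1 led, at 87.5% and 89.3% against 36.1% to 41.8% (49.6 points, 3 tiles), and Hp followed at 40.5 points. The tiles measured in all mice differed between the injection times, so the sizes of these differences cannot be compared between them. Orm1 had 5 tiles for deletion at 1 day, without the coding exon tile that entered at 3 weeks. At an Orm1 intron tile measured for both, the DKO mice had 88.2% and 79.1% after deletion at 1 day. After deletion at 3 weeks they had 68.1% and 83.9% there. All these per-gene tests stood at exact permutation p = 0.2 or above, and at 0.229 or above after adjustment over the 8 genes. Apcs and Il1rn had no tile measured in all mice.

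Single tiles were counted when each DKO mouse lay at least 35 points above each control. After deletion at 1 day this held for 6 of 40 member tiles, 15.0%, against 1.28% of all tiles. After deletion at 3 weeks it held for 3 of 33, 9.09%, against 0.432%. In the 3-week WT mice it held for 3 of 31, 9.68%, against 0.233%, and no member tile lay lower by as much in any of these comparisons. The tile over the Saa1 start site was at 0% in all 6 controls and both 3-week mice, at 37.3% and 53.6% in the DKO injected at 1 day, and at 1.05% and 4.84% in the DKO injected at 3 weeks. At the Saa2 start site the controls had 0% to 7.69%, the DKO injected at 1 day 81.0% and 92.3%, the DKO injected at 3 weeks 41.2% and 38.5% and the 3-week WT mice 44.8% and 11.9%. A coding exon tile of Orm1 stood at 0% in all 6 controls, at 91.2% and 71.4% in the 3-week WT mice and at 94.4% and 95.5% in the DKO injected at 3 weeks. The start sites of both Saa genes therefore had more methylation in the DKO injected at 1 day than in the 3-week WT mice. At the Orm1 exon both DKO mice injected at 3 weeks lay just above 3-week mouse A and well above mouse B.

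**Figure D5:**
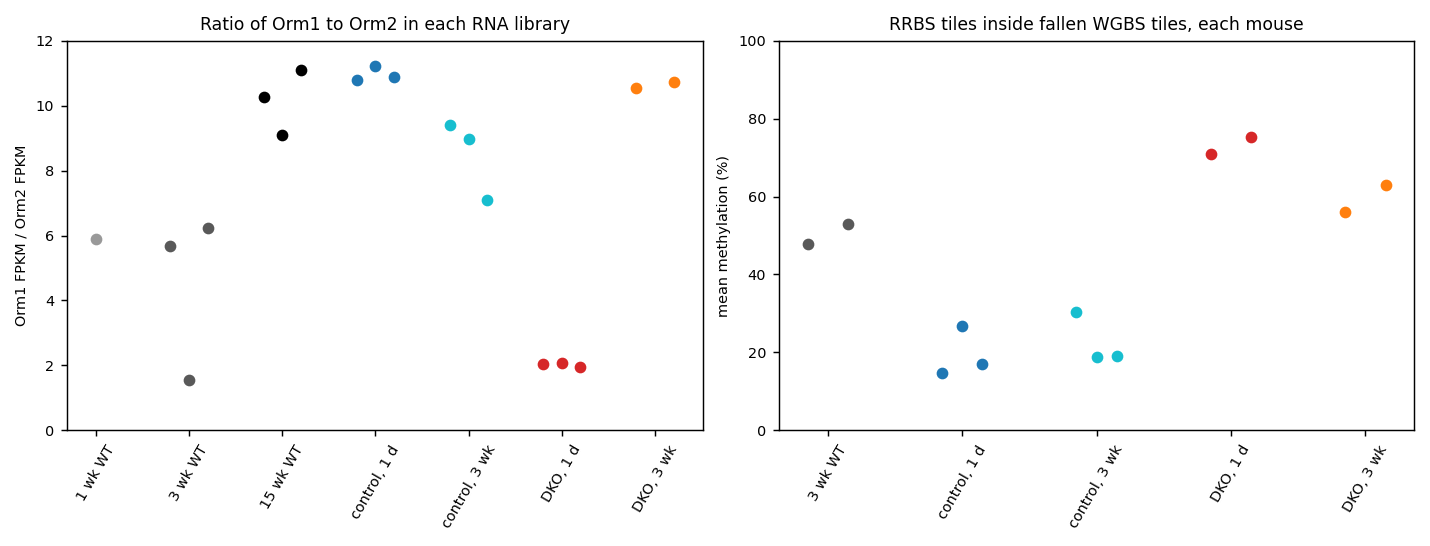
Left, the Orm1 to Orm2 ratio of FPKM in each RNA library; right, mean RRBS methylation in percent in each mouse over the 6 common tiles that lie in WGBS tiles losing 35 points from newborn to adult. The 3 DKO libraries injected at 1 day have ratios of 1.96 to 2.06, and the DKO mice have 56.1% to 75.2% methylation against 14.8% to 30.3% in the injected controls.

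In the 6 RRBS tiles that lie inside the WGBS tiles losing methylation, the 3-week WT mice had means of 47.9% and 52.9%. Controls injected at 1 day had 14.8%, 26.7% and 17.0% and those injected at 3 weeks had 30.3%, 18.9% and 19.2%. DKO mice had 71.0% and 75.2% after deletion at 1 day and 56.1% and 63.0% after deletion at 3 weeks. All DKO mice were thus above all controls in this mean. The order of the DKO injected at 3 weeks and the 3-week WT mice rested on 1 tile, downstream of Hp, which had 0% and 6.06% in the WT mice and 70.4% and 69.6% in the DKO. Without it the means were 57.5% and 62.3% in the WT mice and 53.3% and 61.6% in that DKO, a setting added after seeing the data. At a tile downstream of Saa1 the DKO injected at 3 weeks, at 22.8% and 33.2%, lay below the 3-week WT mice, at 46.6% and 46.7%.

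Open chromatin at the members was present in both genotypes. Peaks of ATAC-Seq, which marks accessible DNA, lay at 9 of the 10 members in each of the 2 WT and 2 DKO liver libraries, where 67.4% to 72.5% of all genes had one. Of 25 ATAC-Seq regions at the members 16 were found in both WT libraries, and 0 of these were absent from both DKO libraries, while 6.9% of such regions were genome-wide. At the Orm2 promoter the normalised tag counts were 8.11 and 9.05 in WT and 7.41 and 9.31 in DKO, and at the Orm1 promoter they were 11.8 and 7.02 against 6.49 and 8.09. One region of 15 found in all 4 libraries was lower in both DKO than in both WT, inside Orm1 and 2329 bases downstream of its start, at 10.5 and 8.95 against 5.44 and 4.99. The WGBS tiles there stood at 67.5% in newborn, 10.4% in adult and 73.3% in DKO. In 2 other regions the DKO libraries were both higher, at -3992 bases from the Saa3 start (6.49 and 3.69 against 7.41 and 7.92) and at 7984 bases from the Il1rn start (6.56 and 7.94 against 11 and 9.03). Genome-wide 8.28% of regions found in all 4 were lower in both DKO libraries and 25.0% were higher. These differences were not tested.

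The active enhancer mark H3K27ac and H3K4me1 lay at all 10 members in the 1 WT and the 1 DKO library each. H3K27ac peaks were found at 56.1% and 60.6% of all genes and H3K4me1 peaks at 71.2% and 73.0%. The H3K27ac peak over Orm1 held 993 normalised tags in WT and 1001 in DKO, and that over Saa1 held 362 and 386. The Orm2 peak held 318 in WT and 619 in DKO, with peak scores of 17 and 18. Such a gap was not particular to Orm2. Summed over the H3K27ac peaks of a member, tags were 1076 in WT and 1786 in DKO at Hp. They were 58.3 and 108.2 at Apcs and 82.3 and 252.8 at Il1rn, and no member had a lower sum in DKO. Values of single libraries carry no replicate error. Peaks of 5-hydroxymethylcytosine, the product of Tet enzymes, were found at 7 members in 1 WT library (85.6% of all genes). The regulator HNF6 had peaks at 2 and 4 members in WT (10.3% and 18.9% of all genes) and 5 and 5 in DKO (19.7% and 43.4%), in libraries whose total number of peaks ran from 4387 to 34665, and the part of that range in these counts was not tested. At the HNF6 region between Saa1 and Saa2, tag counts were 7.96 in the single WT library with a peak and 7.85 and 40.2 in DKO.

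Across the 18 RNA libraries Saa1 and Saa2 rose and fell together most closely (Pearson r = 0.984 of log2(FPKM + 1)), followed by Orm1 with Orm2 (r = 0.866). Orm1 and Il1rn ran opposite (r = -0.89). These are descriptions over libraries that share groups. The genes whose profile was most like the members' mean were the small RNA genes Mir92-1, Mir1942, Mir7083, Mir7231 and Scarna2, at r = 0.697 each over 18 libraries. Each was above 0 in only 1 or 2 libraries and highest in 3-week mouse B, so the likeness rests on that library.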

How the data were processed

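Hepatocyte RNA was measured as poly(A) RNA-Seq. Per the labels and the study's methods the authors trimmed reads with cutadapt, aligned them to mm9 with TopHat2 and deposited FPKM values from Cufflinks, with no counts. The relative depth of the libraries, estimated from the low FPKM values, ran from 0.850 to 1.20. WGBS and RRBS values are methylated fractions deposited by the authors per 200 bp and 100 bp tile after BSMAP 2.74 and are written as percent here. They carry no read numbers, so their depth is unknown. For peaks the authors aligned with Bowtie2 2.2.4 and deposited HOMER lists, from which the normalised tag counts (a coverage signal) and the findPeaks score were read.

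Genes with a mean of 1 FPKM in at least 1 group were tested with limma 3.58.1 (R 4.3.3) on log2(FPKM + 1), all 7 groups in 1 fit, with Benjamini-Hochberg adjusted p below 0.05 called. Fold differences on this scale understate low genes. RRBS means per mouse were compared by exact permutation tests (scipy 1.17.1, Python 3.11.15). The code was tested on simulated data. Nothing states that replicates are more than separate samples of a group, so p-values measure the spread between these samples. Columns of 49 further samples (6 RNA, 43 RRBS) were not used here because their names could not be tied to a single group. The members and lists were chosen with earlier results of these data known. All 10 members are named, with at most 5 called genes a list and comparison, by size. One listed gene is not reported here. The tiles named are those of largest fall or DKO excess. Alternatives covered pseudocount, filter, rescaling, groups in the fit, left-out libraries, tile limits, and peak overlap.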

Additional observations from a re-analysis of the deposited data

Results flagged for a closer look

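Orm2 in the DKO lay on opposite sides of its controls at the 2 injection times. Every DKO library injected at 1 day lay above its 3 controls (208, 296 and 151 against 82.1, 52.6 and 86.1 FPKM) and both DKO libraries injected at 3 weeks lay below theirs (44.1 and 61.0 against 73.1, 80.9 and 82.2 FPKM). The difference between the effects was 2.13 on the log2 scale, and it did not pass with all groups in the fit (limma adjusted p = 0.187).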

How the results depend on the processing

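With every library in place, the member counts for the injected controls against uninjected mice stayed at 0 under all 7 alternatives of each of the 3 comparisons. After deletion at 1 day the count moved from 1 to 2 with only the groups compared (Saa4 and Orm2), and to 3 with the adult groups only or with 3-week mouse B left out of the fit (Saa4, Orm1 and Orm2), the last 2 chosen after seeing the data. After deletion at 3 weeks it moved from 0 to 1 with only the groups compared (Lcn2). The interaction moved from 0 to 1 in the same 3 fits (Orm2). Between 15 and 3 weeks it moved from 4 to 7 with only the groups compared. It was within 1.5 times of 4 under the other alternatives, where Hp passed with rescaling and Hp and Orm2 passed with a filter of 5 FPKM. WGBS tiles that lost methylation numbered 47 at a limit of 50 points and 36 in the gene alone, against 85, and tiles higher in the DKO 65 and 42, against 109. Of the 130 combinations of a member and 1 of 13 libraries, those with a peak numbered 61 in the gene alone against 99. Why these counts moved was not tested, beyond the smaller windows and stricter limits.

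Leaving out 1 library at a time gave 0 to 1 members after deletion at 1 day (0 without control C or DKO A), 0 to 1 in the interaction (1 without DKO B injected at 1 day, Saa4), 4 to 8 between 15 and 3 weeks (8 without 3-week mouse B), and RRBS differences of 14.9 to 20.8, 11.3 to 13.3 and 8.83 to 10.6 points. Signs turned only for differences that did not pass. For injected controls against uninjected mice, Saa2 ran from -0.462 to 0.348, Saa3 from -0.731 to 0.0593, Apcs from -0.242 to 0.0104 and Il1rn from -0.0709 to 0.0596, and Il1rn was -0.0362 with a pseudocount of 0.1 FPKM. After deletion at 1 day Saa1 ran from -0.591 to 0.048 and Hp from -0.103 to 0.234. After deletion at 3 weeks Saa4 ran from -0.258 to 0.334 and Apcs from -0.605 to 0.0778.

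Rescaling moved the median of all genes from -0.11 to 0.01 after deletion at 1 day and from 0.16 to 0 between 15 and 3 weeks. The share of called genes that were higher moved from 21.7% to 50% after deletion at 1 day, from 17.2% to 50.7% at 3 weeks and from 72% to 49.2% between 15 and 3 weeks. Counts of all genes called also moved: with rescaling, the groups compared alone, the adult groups alone and 3-week mouse B left out, 102, 14, 60 and 89 genes against 37 for all injected controls, 21, 5, 25 and 28 against 0 for injection at 1 day, 98, 6, 53 and 82 against 43 for injection at 3 weeks, 1358, 56, 1083 and 1458 against 586 after deletion at 3 weeks, and 2245, 178, 1254 and 1650 against 599 in the interaction. With no filter except above 0 and a filter of 5 FPKM, 2 and 16 genes were called for injection at 1 day, 17 and 26 for injection at 3 weeks and 370 and 332 after deletion at 3 weeks; the interaction had 128 with no filter, and 15 against 3 weeks had 2372 against 3719 with a filter of 5 FPKM.

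No paired analysis was possible because the columns of the RNA and RRBS tables carry animal numbers and no replicate number shared between groups.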

Other observations

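RRBS values of cells outside the comparisons were read at the same 6 tiles, which lie where WGBS methylation fell between newborn and adult hepatocytes. The 2 mice whose hepatocytes lack the insulin receptor (InsR KO, age not given in their labels) had means of 56.9% and 55.8%. For comparison of levels, the injected controls had 14.8% to 30.3%, the 3-week WT mice 47.9% and 52.9%, and the DKO mice 56.1% to 75.2%. One culture of hepatocytes kept in vitro had 79.5% over the 6 tiles. Neutrophils (1 library) had 83.8% and fat (1 library) 80.2%. The InsR KO mice had no control of their own among the mice used here, and no test was made of these values.

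At the tile over the Saa1 start site the InsR KO mice both had 0%, as the controls did, while the 2 cultures had 23.1% and 13.6% and neutrophils 47.4%. At the coding exon tile of Orm1 the InsR KO mice had 87.5% and 100%, against 0% in all 6 injected controls. The Saa2 start site tile had 11.5% and 50% in these mice, and at the 2 Hp tiles downstream and upstream of the gene they had 40.7% and 48.5%, and 93.4% and 80.3%.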
